A study of Mus musculus with 2 samples.

Results

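Aldh1a1, Nupr1, Clu, Sult1a1, Gda, Ghr, Plscr2, Neo1 and Alcam are 9 genes that have been linked to the ageing of mouse haematopoietic stem cells, the rare bone marrow cells from which all blood cells descend. They were taken by symbol from the deposited gene list, where 9 of 9 were found among 31053 genes. The data are single-cell RNA counts (10x Genomics, 3′ tags, each molecule counted once by its unique molecular identifier, UMI) of freshly sorted bone marrow cells called LSK CD150+. Such cells lack the markers of mature lineages and carry Sca-1, Kit and the receptor CD150, and the sort is commonly used to enrich stem cells. One library carries the label RUNX1 WT and the other RUNX1 KO, each from about 10000 sorted cells, and the study set out to compare which cells the sort held in the 2 genotypes.

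Both genotypes come from the Runx1F/F Mx1-Cre model, in which a Runx1 allele flanked by loxP sites is combined with a Cre recombinase that interferon signalling switches on in blood cells and in other tissues. Whether the WT mice carried Cre or the flanked allele, whether and when Cre was induced, the ages of the mice and how many mice gave each library are not given in the sources used here. No old and young groups were compared. The genes are therefore described by their level in these cells, and nothing below measures age. Because each genotype has 1 library, differences between them could not be checked in replicates, and no test was made. All intervals are exact 95% intervals that cover counting error only.

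Stem cells of old mice are more numerous than those of young mice, give fewer lymphocytes and lean towards platelets, and a set of transcripts has been found to accumulate in them. The 9 genes come from such sets and do different things. Aldh1a1 encodes an enzyme that oxidises retinaldehyde to retinoic acid, Sult1a1 an enzyme that couples sulfate to phenols, and Gda the deaminase that turns guanine into xanthine. Nupr1 encodes a small nuclear protein induced by cell stress, and Clu encodes clusterin, a secreted chaperone that platelets also store. Plscr2 belongs to the phospholipid scramblases. Ghr is the growth hormone receptor, which signals through the kinase JAK2 and STAT5, Neo1 (neogenin) is a receptor for netrins and repulsive guidance molecules, and Alcam (CD166) is an adhesion molecule that binds CD6.

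On the GRCm38 (mm10) build with GENCODE M21 annotation, each of the 9 is annotated as protein-coding. Aldh1a1 (ENSMUSG00000053279) is at chr19:20492715-20643465 on the plus strand, and Gda (ENSMUSG00000058624) is on the same chromosome at chr19:21391307-21473445 on the minus strand. Nupr1 (ENSMUSG00000030717, chr7:126623249-126630861) and Sult1a1 (ENSMUSG00000030711, chr7:126672865-126676432) are near each other, both on the minus strand. Plscr2 (ENSMUSG00000032372) lies at chr9:92275602-92297752 on the plus strand and Neo1 (ENSMUSG00000032340) at chr9:58874687-59036441 on the minus strand. Clu (ENSMUSG00000022037) is at chr14:65968483-65981547 on the plus strand, Ghr (ENSMUSG00000055737) at chr15:3317760-3583492 on the minus strand, and Alcam (ENSMUSG00000022636) at chr16:52248996-52454074 on the minus strand.

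Windows of 300 bases around annotated starts, from 250 before to 50 after, are shown for the genes that were lower in the KO-labelled library over all cells, because a RUNX protein binds DNA and the targeted gene encodes one. The sequences are from RefSeq on GRCm38.p6, which lists 9 such windows for 7 of the 9 genes.
Aldh1a1, chr19:20492333-20492632, plus strand: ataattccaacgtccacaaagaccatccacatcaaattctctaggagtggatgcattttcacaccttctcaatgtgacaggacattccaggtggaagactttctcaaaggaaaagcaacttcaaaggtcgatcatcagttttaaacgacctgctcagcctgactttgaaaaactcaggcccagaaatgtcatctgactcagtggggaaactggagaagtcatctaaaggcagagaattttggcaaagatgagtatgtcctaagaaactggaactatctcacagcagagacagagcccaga
Aldh1a1, chr19:20601718-20602017, plus strand: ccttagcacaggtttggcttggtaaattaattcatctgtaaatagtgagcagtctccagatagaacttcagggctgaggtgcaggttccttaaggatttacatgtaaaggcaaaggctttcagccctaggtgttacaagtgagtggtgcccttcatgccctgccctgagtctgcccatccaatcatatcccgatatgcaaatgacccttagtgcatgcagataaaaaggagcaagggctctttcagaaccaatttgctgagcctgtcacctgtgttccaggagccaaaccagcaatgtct
Nupr1, chr7:126625421-126625720, minus strand: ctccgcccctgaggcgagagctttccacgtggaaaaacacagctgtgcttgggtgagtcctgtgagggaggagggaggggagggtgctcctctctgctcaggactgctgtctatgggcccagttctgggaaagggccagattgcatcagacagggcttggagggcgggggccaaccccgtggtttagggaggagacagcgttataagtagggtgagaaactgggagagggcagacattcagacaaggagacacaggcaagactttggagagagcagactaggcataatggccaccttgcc
Alcam, chr16:52453032-52453331, minus strand: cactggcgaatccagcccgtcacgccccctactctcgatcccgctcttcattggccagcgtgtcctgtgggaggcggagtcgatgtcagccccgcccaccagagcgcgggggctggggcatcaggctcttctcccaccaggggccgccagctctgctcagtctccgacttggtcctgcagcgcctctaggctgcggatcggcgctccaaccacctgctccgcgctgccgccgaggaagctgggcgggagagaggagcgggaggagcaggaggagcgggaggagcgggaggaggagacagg
The RUNX core letters TGTGGT, or ACCACA on the other strand, were in 0 of the 9 windows, so no base is set in capitals. Among all mouse genes listed there, 18.9% of 27025 have a window with these letters. The variant TGCGGT, or ACCGCA, chosen after the first search, was also in 0 of the 9 windows and in a window of 7.34% of the genes. Other forms of the site were not searched for, so these counts do not show that the windows lack a RUNX site. The windows differed in base composition, with 43.3% and 47.0% G and C in the Aldh1a1 windows, 58.3% in that of Nupr1 and 69.7% in that of Alcam. The counts do not say which of the Aldh1a1 starts was used.

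After keeping barcodes that had 500 genes or more and no more than 10% mitochondrial UMIs there were 9472 WT and 10769 KO-labelled cells, with medians of 9884 and 9310 UMIs. The libraries shared 39 cell barcodes. They stood apart in more than genotype. Of the WT cells 70.6% had a UMI of a Y-linked gene and no Xist UMI (male cells below), against 9.04% of the KO-labelled cells, of which 82.9% carried at least 2 Xist UMIs and none of the Y-linked genes (female cells). Sex and genotype are thus largely confounded, and ratios in male cells alone stand beside many of those between libraries. Runx1 itself stood at 104 CPM (UMIs of the gene per 1000000 UMIs of the same cells) in WT cells. It was higher, at 196 CPM, in cells labelled KO. Counts of 3′ tags do not show whether a deleted exon is missing, so the label could not be checked from them. Each direction below is therefore that of the library labelled KO. The sort antigens Ly6a, Kit and Slamf1 were present in both libraries, at 35.5, 150 and 17.5 CPM in WT and 49.0, 141 and 28.5 CPM in KO-labelled cells.

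Cells were read in 3 main groups. Procr encodes the endothelial protein C receptor, a surface marker of stem cells, and cells with at least 1 Procr UMI (Procr-positive) numbered 938 in the WT and 788 in the KO-labelled library. A list of 20 stem cell genes summed to 3995 and 3309 CPM in them against 2164 and 2004 CPM in Procr-negative cells. Pf4 encodes platelet factor 4 of megakaryocytes and of stem cells that lean towards platelets, and 3178 WT and 2042 KO-labelled cells had 3 or more Pf4 UMIs (Pf4 group). Only 177 and 59 cells belonged to both groups. A further pair of groups served as background, where stem cell transcripts should be low: 564 and 814 cells with at least 10 UMIs of Elane, Prtn3 and Ctsg (granulocyte group), and 1104 and 1296 cells with at least 3 UMIs of Car1, Klf1 and Ermap (erythroid group), all without Procr UMIs and with fewer than 3 Pf4 UMIs. Procr-positive cells were the shallowest, with medians of 7690.5 and 7776.5 UMIs, and Pf4 cells were deeper, at 12604.5 and 12165.5, as were the granulocyte (14371 and 14148.5) and erythroid groups (11888 and 11165). The granulocyte group was not made of the same cells in both libraries (values with Sult1a1 below), so its ratios are not those of one cell type.

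Over all kept cells Aldh1a1, Nupr1 and Alcam were lower in the KO-labelled library by at least 1.5-fold and Gda was higher, while Clu, Sult1a1 and Plscr2 had ratios of 0.994, 1.06 and 0.985. These are 3 lower and 1 higher of the 7 genes that reached 5 CPM in one library or both, with Ghr and Neo1 under that level. Among the 9572 genes at that level 3.85% were lower and 2.96% higher by as much. The members' median log2 ratio was -0.022 and that of all tested genes -0.083. The level of each gene by group of cells is shown in the plot of 9 panels.

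**Figure D1:**
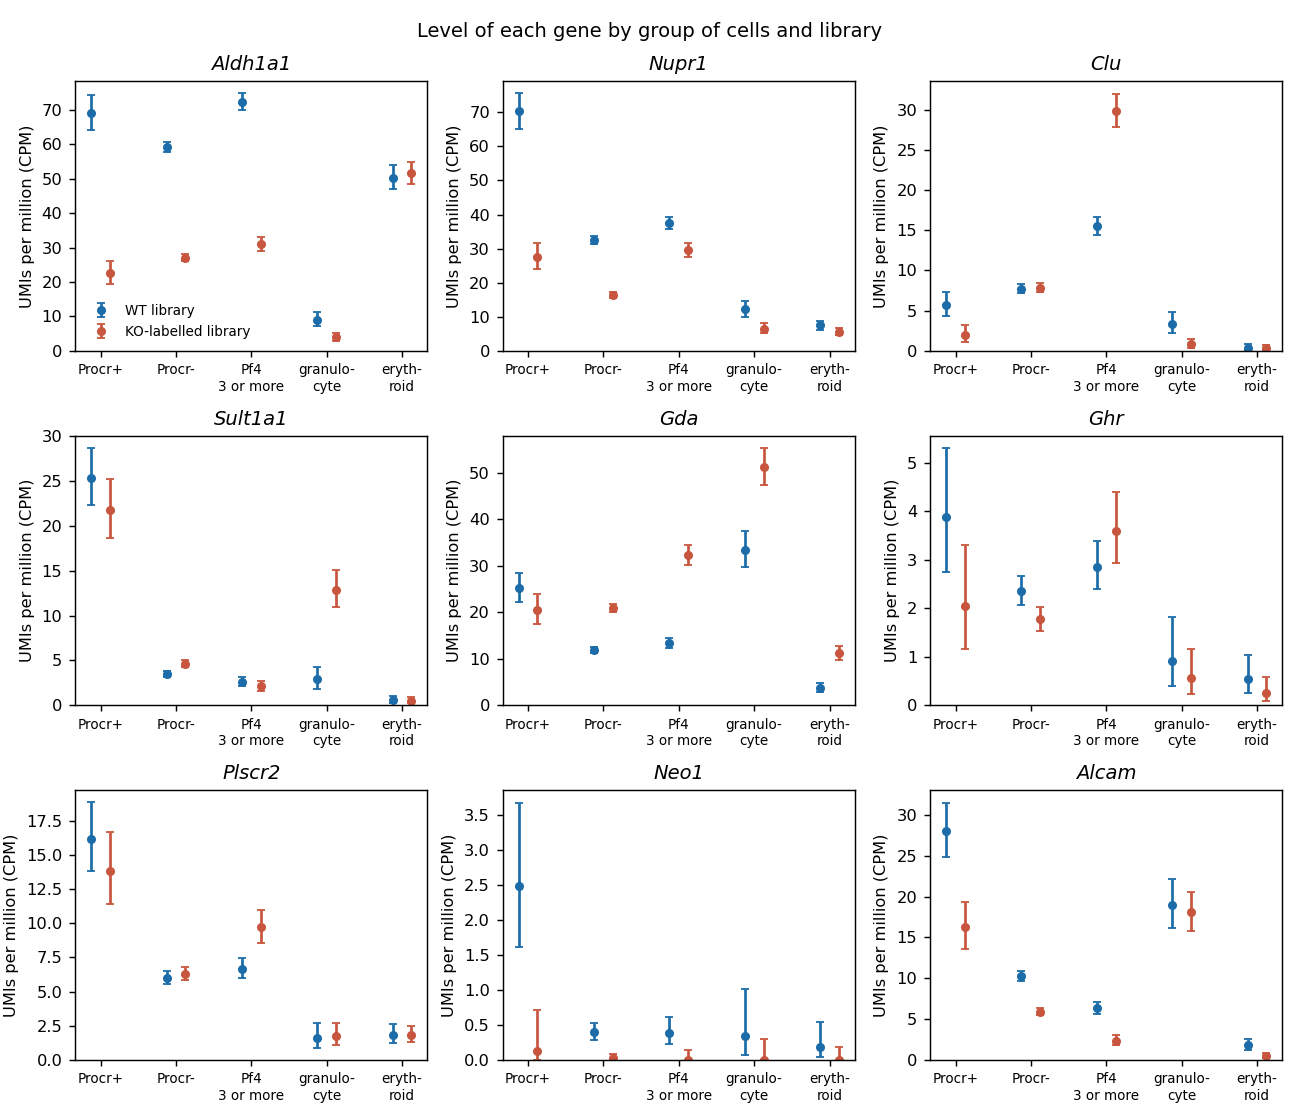
Level of each of the 9 genes in CPM (y axis, from 0, own scale per gene) in Procr-positive and Procr-negative cells, cells with 3 or more Pf4 UMIs, and the granulocyte and erythroid groups (x axis), WT library in blue and KO-labelled library in red. Points are summed UMIs of 1 library and bars are 95% Poisson intervals for counting error; Sult1a1, Alcam and Plscr2 stand higher in Procr-positive than in Procr-negative cells of both libraries, Clu is highest in the Pf4 group, and Aldh1a1 differs between libraries in each group but the erythroid one.

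Aldh1a1 was at 60.1 CPM (58.7 to 61.6, 6774 UMIs) in the WT and 26.8 CPM (25.9 to 27.7, 3195 UMIs) in the KO-labelled library, for a ratio of 0.445 (0.427 to 0.465). It was lower in the KO-labelled library in 4 of the 5 groups. In Procr-positive cells it stood at 69.2 against 22.6 CPM, a ratio of 0.327 (0.276 to 0.386), and in the Pf4 group at 72.4 against 31.0 CPM, a ratio of 0.429 (0.397 to 0.463). The granulocyte group held little of it, 9.09 against 3.92 CPM. The erythroid group went its own way, with 50.4 CPM (47.0 to 53.9) in the WT and 51.6 CPM (48.5 to 54.8) in the KO-labelled library, where the intervals overlap. That ratio of 1.02 lay between 0.768 (cells thinned to 3000 UMIs) and 1.46 (male cells) over the alternatives.

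A UMI of the gene was seen in 42.7% of the WT cells and in 20% of those labelled KO. After each cell was thinned to 3000 UMIs Procr-positive cells had one in 19.8% (WT) and 6.65% (KO-labelled) of cases, against 1.77% and 1.23% in the granulocyte group, which is the background here. In the erythroid group 14.5% and 11.2% of thinned cells had a UMI. The KO-labelled erythroid cells held 32.2% of that library's Aldh1a1 UMIs, and the WT erythroid cells 12.2% of theirs. Aldh1a7, a close paralog with which reads may be shared, was at 13.1 and 13.4 CPM there, against 1.49 and 1.40 CPM in Procr-positive cells.

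The Aldh1a1 ratio was nearer to 1 in male cells. Male WT cells were at 60.4 CPM and male KO-labelled cells at 42.9 CPM (455 UMIs), a ratio of 0.710 that no longer passes 1.5-fold, and female KO-labelled cells were at 24.4 CPM. In male Procr-positive cells the ratio was 0.644 from 22 KO-labelled UMIs, and in the male Pf4 group it was 0.785. In the granulocyte group it was 0.416 in male cells (5 KO-labelled UMIs), near the 0.432 of all cells there. Within the KO-labelled library alone male cells thus had the higher Aldh1a1 level in 3 groups, at 43.7 against 18.3 CPM in Procr-positive cells, 56.9 against 28.5 CPM in the Pf4 group and 73.5 against 47.9 CPM in the erythroid group. The part of sex in the difference between libraries was not tested.

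Sult1a1, the sulfotransferase, was at 5.44 CPM in the WT and 5.78 CPM in the KO-labelled library, for a ratio of 1.06 (0.951 to 1.19). The equal totals hide a sharp distribution over cells. Procr-positive cells were at 25.3 CPM (22.3 to 28.6) and 21.8 CPM (18.6 to 25.3), and Procr-negative cells at 3.49 and 4.65 CPM. With 9.90% of the WT cells, the Procr-positive group held 41.6% of the WT Sult1a1 UMIs, and with 7.32% of the KO-labelled cells it held 24.8% of theirs. In the granulocyte group the libraries separated, with 2.88 CPM (25 UMIs) in WT and 12.9 CPM (161 UMIs) in KO-labelled cells, a ratio of 4.48 (2.93 to 7.13), and 9.84 with the groups drawn from thinned cells. That group was not made of the same cells in both: a list of 8 basophil and mast cell genes summed to 2640 CPM there in WT and 234 in KO-labelled cells, and a list of 8 neutrophil genes to 167 and 2517 CPM. Their part in the Sult1a1 ratio was not tested. Under a stricter cell filter (1000 genes, 5% mitochondrial UMIs) the Sult1a1 ratio over all cells was 2.35, that in Procr-positive cells 1.58 and that in the granulocyte group 7.51. In male Procr-positive cells the ratio was 1.54 (15 KO-labelled UMIs).

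Gda, the guanine deaminase, stood at 13.1 CPM (12.4 to 13.8) in the WT and 21 CPM (20.1 to 21.8) in the KO-labelled library. The ratio was 1.60 (1.5 to 1.71), and 1.44 with cells thinned to 3000 UMIs. Direction depended on the group of cells. Procr-positive cells had 25.1 CPM in WT and 20.5 CPM in KO-labelled cells, a ratio of 0.815 (0.664 to 0.996), which does not reach 1.5-fold. It was 0.629 with cells thinned to 3000 UMIs and 0.336 in male cells (4 KO-labelled UMIs), and 1.02 where at least 2 Procr UMIs were asked for. In the Pf4 group the level was 13.4 CPM in WT and 32.3 CPM in KO-labelled cells, a ratio of 2.42 (2.18 to 2.68). In the erythroid group 3.72 stood against 11.2 CPM (3.02, 2.26 to 4.07), a ratio that was 4.93 under the stricter filter. The granulocyte group had the highest level in both libraries, 33.4 CPM in WT and 51.2 CPM in KO-labelled cells, a ratio of 1.54 that was 1.31 under the stricter filter.

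Nupr1, the stress-induced nuclear protein gene, was at 35.8 CPM (34.7 to 37.0) in the WT and 17.1 CPM (16.4 to 17.9) in the KO-labelled library, for a ratio of 0.478 (0.453 to 0.504). WT Procr-positive cells had the highest level, 70.3 CPM (65.2 to 75.6), and KO-labelled Procr-positive cells were at 27.6 CPM (24.1 to 31.5), a ratio of 0.393 (0.336 to 0.458). In thinned cells the share with a Nupr1 UMI was 17.8% of WT and 6.91% of KO-labelled Procr-positive cells, against 2.72% and 1.01% in the erythroid group. The libraries lay closer in the Pf4 group, at 37.6 and 29.6 CPM, a ratio of 0.787 (0.723 to 0.856) that was 1.04 with groups drawn from thinned cells. Male and female KO-labelled cells were alike over all cells, at 18.3 and 17.2 CPM. In Procr-positive cells they were at 49.7 CPM (25 UMIs of 58 male cells) and 26.7 CPM, and the male-only ratio to WT was 0.794.

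Clu had equal totals in the libraries, 7.52 CPM (7.02 to 8.04) and 7.47 CPM (6.99 to 7.98), from different distributions over cells. Cells with a Clu UMI made up 5.92% of the WT and 3.75% of the KO-labelled library. The Pf4 group held 86.0% of the WT and 91.1% of the KO-labelled Clu UMIs. Its level there was 15.5 CPM (14.4 to 16.7) in the WT and 29.8 CPM (27.8 to 32.0) in the KO-labelled library, for a ratio of 1.92 (1.74 to 2.13). In the KO-labelled library 1 cell held 65 Clu UMIs, and without the cell with most Clu UMIs in each library the ratio was 1.79. Procr-positive cells, which share 177 WT and 59 KO-labelled cells with the Pf4 group, went the other way, with 5.66 CPM (57 UMIs) in the WT and 1.91 CPM (15 UMIs) in KO-labelled cells, a ratio of 0.337 (0.177 to 0.603). With cells thinned to 3000 UMIs these were 4 and 3 UMIs and the ratio 0.892, and in male cells 51 and 0 UMIs. Of these UMIs 36 in the WT and 8 in the KO-labelled library came from the shared cells, at 11.1 and 9.14 CPM (0.827, 0.332 to 1.81), and outside the Pf4 group the ratio was 0.325 (21 and 7 UMIs). The megakaryocyte list of 16 genes summed to 1668 CPM in the WT and 2806 CPM in the KO-labelled Pf4 group. Its part in the Clu ratio was not tested.

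Plscr2, the scramblase family gene, was at 6.91 CPM (6.43 to 7.41) in the WT and 6.80 CPM (6.34 to 7.28) in the KO-labelled library. The intervals overlap. Procr-positive cells were at 16.2 and 13.9 CPM a ratio of 0.856 (0.665 to 1.10) that was 0.535 with cells thinned to 3000 UMIs and 0.281 (8 KO-labelled UMIs) with groups drawn from thinned cells. The Pf4 group was at 6.69 and 9.73 CPM, a ratio of 1.46 (1.23 to 1.72) that was 1.53 with TMM scaling, 1.64 under the stricter filter and 2.57 in male cells. Both background groups were low, at 1.61 and 1.76 CPM in the granulocyte group and 1.83 and 1.81 CPM in the erythroid group. Male KO-labelled cells had 10.9 CPM and female ones 6.07 CPM, against 6.29 CPM in male WT cells, so that the male-only ratio was 1.74. Among Procr-positive cells the male-only ratio was 3.14, from 22 KO-labelled UMIs.

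The 3 cell-surface genes were each lower in the KO-labelled library, from very different numbers of UMIs. Alcam was at 11.9 CPM (11.2 to 12.5) in the WT and 6.56 CPM (6.10 to 7.03) in the KO-labelled library, for a ratio of 0.553 (0.506 to 0.605). In Procr-positive cells it had 28.0 against 16.3 CPM, a ratio of 0.581 (0.468 to 0.719) that was 0.721 under the stricter filter and 0.669 in male cells, both short of 1.5-fold, and 0.307 with groups drawn from thinned cells. Pf4 cells were at 6.28 and 2.35 CPM, a ratio of 0.374 (0.281 to 0.492), and of 0.207 with groups drawn from thinned cells and 0.145 in male cells (2 KO-labelled UMIs each). In the granulocyte group the intervals overlapped, at 19.0 CPM (16.2 to 22.1) and 18.1 CPM (15.8 to 20.6), for a ratio of 0.953 that was 1.62 with groups drawn from thinned cells (14 and 30 UMIs). It held 12.4% of the WT Alcam UMIs and 28.9% of the KO-labelled ones.

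Ghr was scarce, with 280 WT UMIs (2.49 CPM, 2.20 to 2.79) and 213 KO-labelled UMIs (1.79 CPM, 1.55 to 2.04), a ratio of 0.719 (0.598 to 0.862). Procr-positive cells held 39 and 16 of them, at 3.88 and 2.04 CPM. In the Pf4 group the levels were 2.85 and 3.60 CPM, whose intervals overlap. Neo1, the guidance receptor gene, had 65 UMIs in the WT library (0.577 CPM, 0.445 to 0.735) and 4 in the KO-labelled library (0.0335 CPM, 0.00914 to 0.0859). The ratio was 0.0581 (0.0154 to 0.156), with 18 against 3 UMIs under the stricter filter (0.112) and in thinned cells (0.145). Of the 65 WT UMIs 25 came from Procr-positive cells (2.48 CPM), against 1 of the 4 KO-labelled UMIs. The KO-labelled Pf4, granulocyte and erythroid groups had 0 Neo1 UMIs, which with 3 UMIs in place of 0 would be 0.110, 0.240 and 0.150 CPM. The WT granulocyte and erythroid groups had only 3 Neo1 UMIs each (0.345 and 0.183 CPM). The WT Pf4 group had 7 in its Procr-positive and 11 in its Procr-negative cells. Male WT cells had 38 Neo1 UMIs and male KO-labelled cells 0, which allows up to 0.283 CPM in the latter against 0.431 CPM in the former.

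Within Procr-positive cells alone, 4 of the 7 members at 5 CPM or more were lower by at least 1.5-fold in the KO-labelled library (Aldh1a1, Nupr1, Clu and Alcam) and 0 were higher. Of 9949 genes tested in these cells 7.24% were lower and 3.96% higher by that much. The members' median log2 ratio was -0.78, and that of all genes -0.067. In male cells, of which the KO-labelled library had 58 that were Procr-positive, 2 members were lower and 2 higher. In the Pf4 group 2 of 6 tested members were lower (Aldh1a1 and Alcam, background 4.46%) and 2 higher (Clu and Gda, background 3.51%), with a median of 0.098 against -0.074 over all genes. Male cells of the Pf4 group gave 1 lower and 3 higher. The shares of all genes given here are for all cells of each group. None is given for male cells, so the male counts cannot be read against one. Among Procr-negative cells 3 of 6 were lower (Aldh1a1, Nupr1 and Alcam, background 3.70%) and 1 higher (Gda, background 3.04%). In the granulocyte group 2 of 5 were lower (Aldh1a1 and Nupr1, background 3.90%) and 2 higher (Sult1a1 and Gda, background 3.12%), and in the erythroid group 0 of 3 were lower (background 4.23%) and 1 higher (Gda, background 2.91%). The granulocyte group held unlike cells in the libraries, and their part in its counts was not tested.

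**Figure D2:**
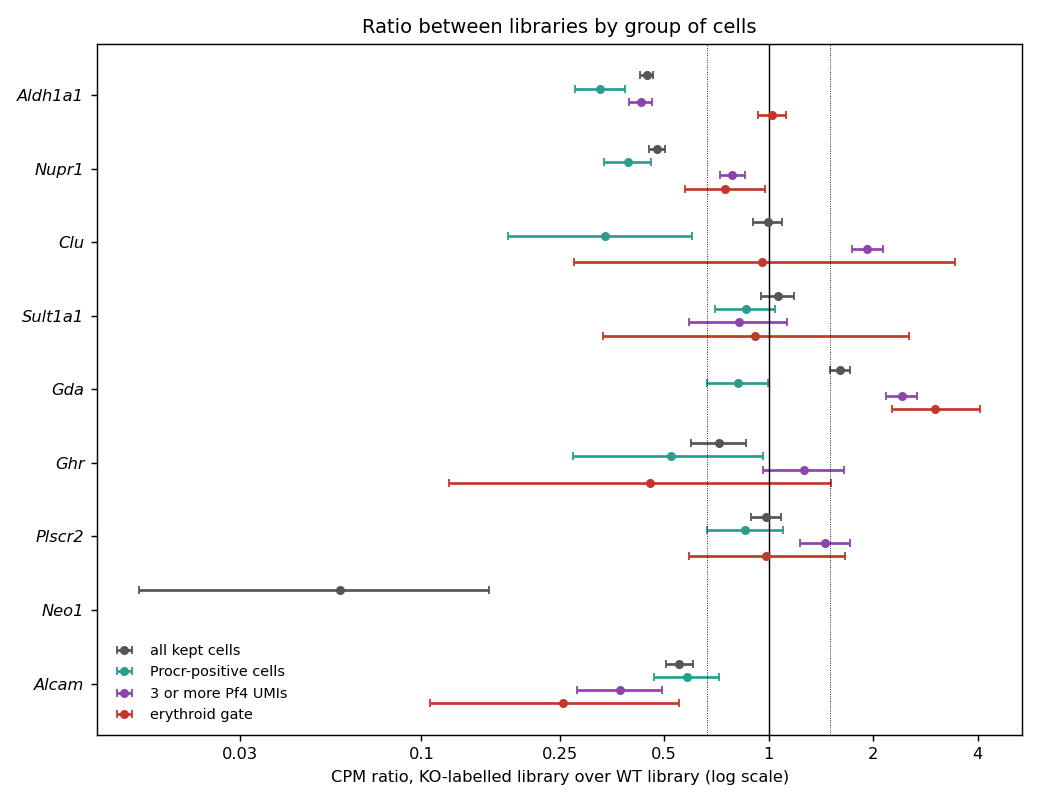
CPM ratio of the KO-labelled over the WT library (x axis, log scale) for each of the 9 genes (y axis) over all kept cells (grey), in Procr-positive cells (green), in cells with 3 or more Pf4 UMIs (purple) and in the erythroid group (red), with 95% intervals for counting error, dotted lines at 1.5-fold either way, and no point where a side had 3 UMIs or fewer. Alcam lies below 1 in all 4, Aldh1a1 in all but the erythroid group, Gda lies at 0.815 in Procr-positive cells and 2.42 in the Pf4 group, and Clu at 0.337 and 1.92.

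Crossing the Procr and Pf4 gates splits the cells further. Procr-positive cells outside the Pf4 group numbered 761 in the WT and 729 in the KO-labelled library, and their ratios were 0.345 for Aldh1a1, 0.373 for Nupr1, 0.544 for Alcam, 0.714 for Gda (0.567 to 0.897) and 0.739 for Sult1a1 (0.599 to 0.910). There 3 of 6 tested members were lower and 0 higher, with backgrounds of 7.82% and 4.2%. In Procr-negative cells of the Pf4 group Gda had a ratio of 2.53 (2.28 to 2.83), Clu 1.93 and Aldh1a1 0.435, and 2 of 6 were higher (background 3.7%) and 2 lower (background 4.26%). Procr-negative cells outside the Pf4 group, the bulk of both libraries, had ratios of 1.56 for Gda, 0.519 for Aldh1a1 and 0.410 for Nupr1. Clu was at 0.509 (0.370 to 0.697) there, opposite to the Pf4 group. Of 6 tested, 1 was higher (background 2.6%) and 3 lower (background 3.64%). In the crossed Procr-positive Pf4 group Gda was at 21.5 CPM in WT and 30.9 CPM in KO-labelled cells. The interval of that ratio (1.43, 0.885 to 2.27) spans 1, so it shows no direction. The 59 KO-labelled cells held 15 Aldh1a1 UMIs (17.1 CPM, 9.60 to 28.3) and the 177 WT cells 236 (72.5 CPM, 63.6 to 82.4). There 1 of 7 tested members (Plscr2, 19 KO-labelled UMIs) was higher and 3 were lower, with backgrounds of 8.72% and 15.5%. The crossed cells were deep, with medians of 17118 UMIs in the WT and 13346 in the KO-labelled library. The other Procr-positive cells had medians of 6947 and 7653 UMIs. No doublet caller was run, and the part of depth or doublets was not tested.

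Procr-positive cells had more of most members than Procr-negative cells of the same library. In the WT library 5 of 7 tested members were at least 1.5-fold higher (Nupr1, Sult1a1, Gda, Plscr2 and Alcam), where 10.9% of 9936 genes were, and 0 were lower (background 3.90%). In the KO-labelled library 4 of 7 were higher (Nupr1, Sult1a1, Plscr2 and Alcam, background 10.5%) and Clu was lower (background 3.89%). The median log2 ratios were 1.11 in the WT and 0.75 in the KO-labelled library, against 0.032 and 0.046 over all genes. Cells of 1 library are not replicates, and Procr-positive cells were the shallower ones.

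Sult1a1 stood out most clearly, at 7.26 times (6.16 to 8.55) the Procr-negative level in the WT and 4.68 times (3.91 to 5.57) in the KO-labelled library, the latter 7.45 times from 2 Procr UMIs. Alcam was at 2.73 and 2.77 times, and at 3.55 and 1.88 times with groups drawn from thinned cells. It was not highest in Procr-positive cells. Flt3-positive cells outside the Procr-positive, Pf4, granulocyte and erythroid groups (334 WT and 575 KO-labelled) had Alcam at 44.4 and 22.7 CPM. Sult1a1 was at 8.29 and 16.1 CPM in these cells. Plscr2 was at 2.70 times in the WT and 2.20 times in the KO-labelled library, where it was 1.10 times with groups drawn from thinned cells (8 UMIs) and 4.70 times in male cells (22 UMIs). Nupr1 was at 2.16 and 1.69 times, the latter 1.43 under the stricter filter and 2.97 in male cells (25 UMIs). Gda was at 2.12 (1.84 to 2.42) in the WT and 0.975 (0.826 to 1.14) in the KO-labelled library, the latter 1.5 with groups drawn from thinned cells and 0.365 in male cells (4 UMIs). Aldh1a1 was slightly above its Procr-negative level in WT (1.17, 1.08 to 1.26) and slightly below it in KO-labelled cells (0.836, 0.715 to 0.973), the latter from 0.708 (stricter filter) to 1.31 (groups drawn from thinned cells) over the alternatives. Neo1, under 5 CPM, was at 6.37 times (3.70 to 10.8) in the WT library.

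The level of some genes differed with the number of Procr UMIs. Sult1a1 went from 3.49 CPM in WT cells without a Procr UMI to 22.4, 34.2 and 32.3 CPM with 1, 2 and 3 or more, and from 4.65 to 18.3, 26.3 and 65.2 CPM in the KO-labelled library, where the last value rests on 38 cells and 23 UMIs. Nupr1 in the WT library was at 32.5, 67.0, 69.5 and 101 CPM. Alcam was higher with any Procr UMI, without an order among cells that had one, at 10.3, 27.0, 32.5 and 27.5 CPM in the WT library. In the KO-labelled library Alcam was at 5.87, 16.1, 16.3 and 19.8 CPM.

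Along Pf4 the members divided. Clu was at 2.25 CPM in WT cells without a Pf4 UMI and at 35.2 CPM in those with 100 or more, and it went from 0.588 to 163 CPM in the KO-labelled library. Gda changed little along Pf4 in the WT library, from 13.7 to 17.8 CPM with a lowest value of 8.10 CPM at 3 to 9 Pf4 UMIs, and went from 18.8 to 62.7 CPM in the KO-labelled library. Alcam and Sult1a1 went down with Pf4. Alcam went from 18.3 to 4.35 CPM in the WT and from 9.15 to 0.865 CPM in the KO-labelled library, and Sult1a1 was at 8.65 and 1.34 CPM at the ends in the WT and at 7.55 and 0.432 CPM in the KO-labelled library, the last from 1 UMI. The Alcam value at that end of the KO-labelled library also rested on very few UMIs. Aldh1a1 had its highest WT level, 82.5 CPM, at 10 to 29 Pf4 UMIs, and ranged from 25.1 to 34.4 CPM in KO-labelled cells.

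**Figure D3:**
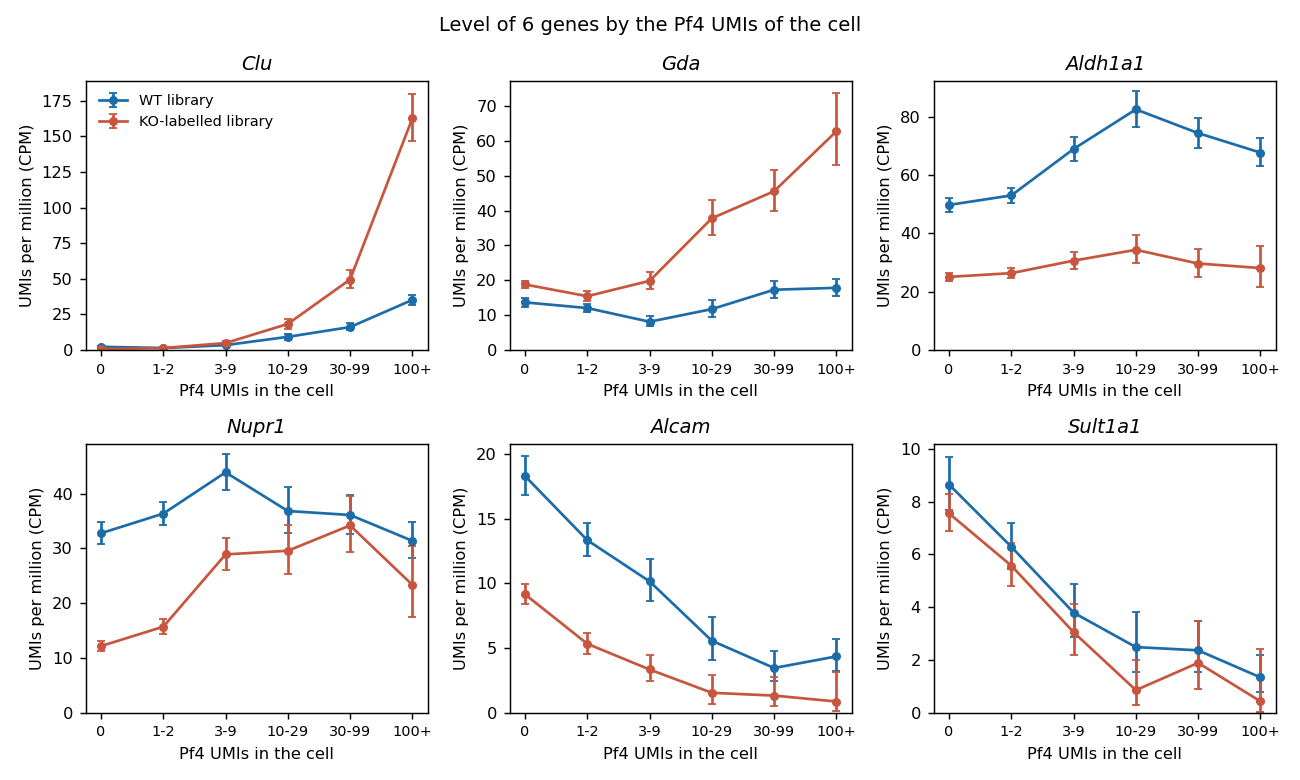
Level of Clu, Gda, Aldh1a1, Nupr1, Alcam and Sult1a1 in CPM (y axis, from 0, own scale) in cells grouped by their Pf4 UMIs (x axis), WT library in blue and KO-labelled library in red, with 95% Poisson intervals. Clu reaches 35.2 CPM in the WT and 163 CPM in the KO-labelled library at 100 or more Pf4 UMIs, Gda stands at 17.8 and 62.7 CPM there, and Alcam and Sult1a1 are lower where Pf4 is high.

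Against all other kept cells the Pf4 group had Clu at 8.56 times (7.05 to 10.5) in the WT and 34.8 times (27.6 to 44.4) in the KO-labelled library. In the WT library Clu was the 1 member of 7 higher by 1.5-fold (background 3.50%), and in the KO-labelled library Nupr1, Clu, Gda and Plscr2 were (4 of 7, background 4.82%). Sult1a1 and Alcam were the 2 members lower in both (backgrounds 6.53% and 5.61%), Sult1a1 at 0.348 and 0.311 times and Alcam at 0.397 and 0.301 times. Nupr1 was at 1.09 times in the WT and 2.21 times in the KO-labelled library, and Ghr, under 5 CPM, at 1.28 and 2.88 times. Both libraries' Pf4 cells were deeper than the rest. CPM scales for the total of UMIs, but shares of cells and entry to the Pf4 group, at 3 or more UMIs, still depend on depth. Fewer Pf4-rich cells and fewer Pf4 UMIs per cell cannot be told apart by a gate on Pf4, and Pf4 itself was at 1483 CPM in the WT and 485 CPM in the KO-labelled library.

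Co-detection was read as the number of cells with both transcripts over the number expected if they were independent within each of 10 depth classes. With Procr the same 3 genes led in both libraries, leaving out Neo1: Sult1a1 was found together with it in 3.33 times (2.86 to 3.85) the expected number in the WT and 2.80 times (2.29 to 3.40) in the KO-labelled library, Alcam 2.23 and 2.55 times, and Plscr2 2.09 and 1.73 times. Nupr1 was at 1.65 and 1.33 times. Gda was at 1.80 (1.55 to 2.08) in the WT and at 1.05 (0.864 to 1.26) in the KO-labelled library. Clu was at 0.878 (42 cells, 0.633 to 1.19) in the WT and 0.484 (12 cells, 0.250 to 0.846) in the KO-labelled library. Procr and the Pf4 gate met in 177 WT cells where 274 were expected, and in 59 KO-labelled cells where 130 were.

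With 3 or more Pf4 UMIs Clu was found in 1.81 times (1.65 to 1.98) the expected number of cells in the WT and 3.11 times (2.78 to 3.46) in the KO-labelled library. Of the 561 WT cells with Clu 81.5% lay in the Pf4 group, and of the 404 KO-labelled ones 83.4%. Sult1a1 (0.734 and 0.581) and Alcam (0.615 and 0.410) were found with Pf4 less often than expected. Gda was at 1.11 and 1.52, Nupr1 at 1.15 and 1.53 and Ghr at 1.28 and 1.88. Aldh1a1 was at 1.18 in both libraries, despite its different levels.

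**Figure D4:**
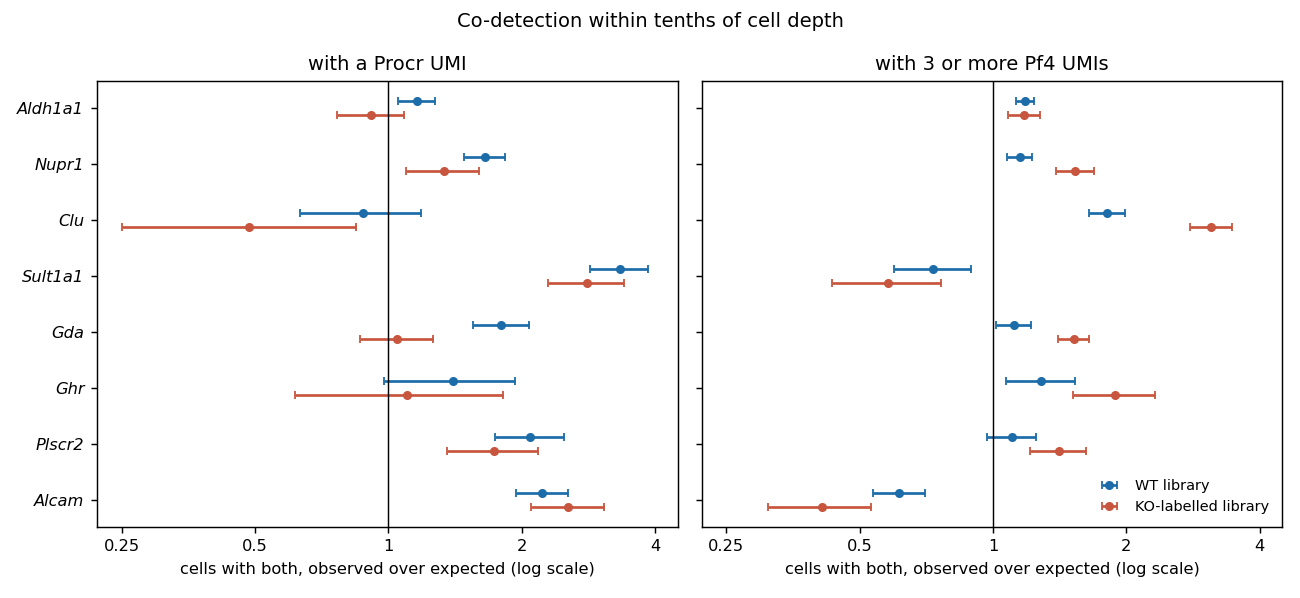
Cells with both transcripts, observed over expected within 10 depth classes (x axis, log scale), for 8 of the genes (y axis; Neo1, with 4 KO-labelled UMIs, is left out) with a Procr UMI (left) and with 3 or more Pf4 UMIs (right), WT library in blue and KO-labelled library in red. Bars are 95% Poisson intervals of the observed cells; Sult1a1 and Alcam lie above 1 with Procr and below 1 with Pf4 in both libraries, and Clu lies at 1.81 and 3.11 with Pf4.

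Among the members themselves, Sult1a1 and Alcam were found together in 2.27 times the expected number of cells in the WT (114 cells) and 3.45 times in the KO-labelled library (103 cells). Sult1a1 and Plscr2 met 2.88 times (2.31 to 3.55) as often in the WT and 1.29 times (0.901 to 1.80) in the KO-labelled library. Gda and Clu met 1.74 and 1.85 times as often, and Sult1a1 and Nupr1 1.67 and 1.61 times. Alcam and Aldh1a1 were found together less often than expected, 0.904 in the WT and 0.557 (0.443 to 0.690) in the KO-labelled library. Alcam and Clu were at 0.696 and 0.432. All pairs share their cells and libraries, so these values are not independent of one another.

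Few cells had UMIs of several members. With each cell thinned to 3000 UMIs, 51.1% of WT Procr-positive cells (475 of 930; 47.8 to 54.3%) and 28.6% of KO-labelled ones (224 of 782; 25.5 to 32.0%) had at least 1 of the 9. The shares in the erythroid group were 18.4% and 15.5%, and those in the granulocyte group 18.1% and 22.6%. At least 2 members were found in 15.6% and 5.63% of Procr-positive cells, and at least 3 in 39 of 930 (4.19%) and 7 of 782 (0.895%). In the Pf4 group the libraries were closer, 35.8% and 29.9% with at least 1 and 6.11% and 5.30% with at least 2. In all 8 and 6 Procr-positive cells under 3000 UMIs were left out.

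**Figure D5:**
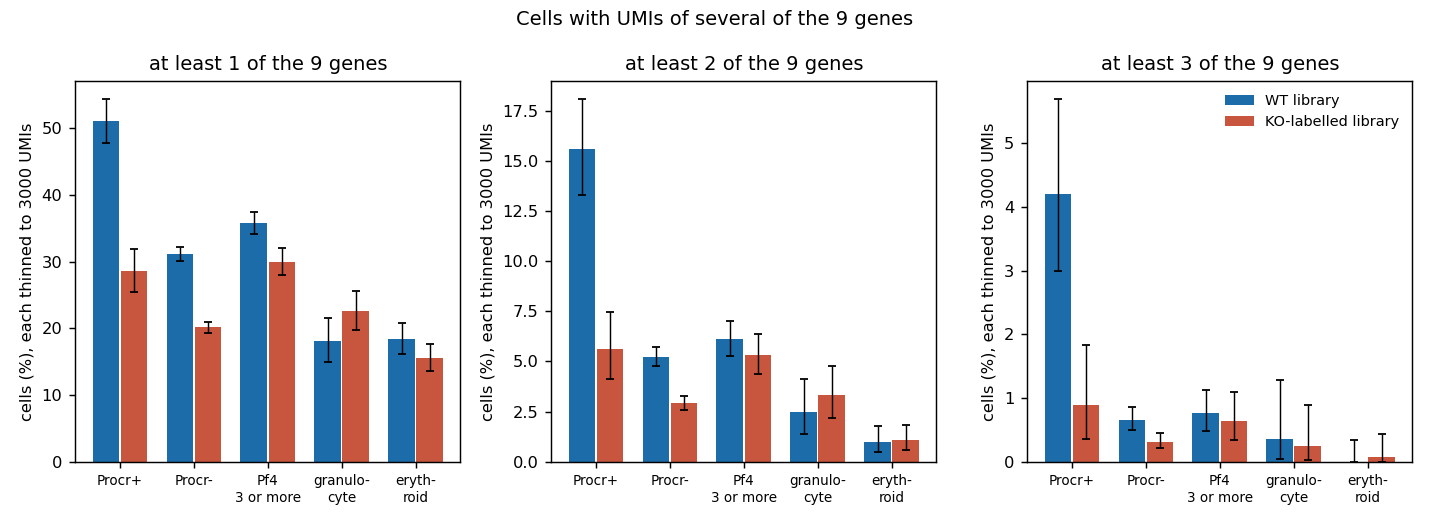
Share of cells (y axis, percent, from 0) with UMIs of at least 1, 2 or 3 of the 9 genes (panels) after thinning each cell to 3000 UMIs, by group of cells (x axis) and library (WT blue, KO-labelled red). Bars are shares within 1 library with exact 95% Clopper-Pearson intervals for counting error; Procr-positive cells differ most between libraries, with 15.6% against 5.63% at 2 or more genes.

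Other genes linked to stem cell ageing were read from a list of 30. Over all cells 19 were at 5 CPM or more, of which 6 were lower (Vwf, Selp, Fhl1, Egr1, Mmrn1 and Trpc6) and 4 higher (Slamf1, Fosb, Zfp36 and Gstm2) by at least 1.5-fold in the KO-labelled library, with a median log2 ratio of 0.048 (backgrounds of 3.85% and 2.96%, and a median of -0.083). Vwf, the von Willebrand factor of platelets, was at 42.5 and 13.7 CPM, the ion channel gene Trpc6 at 28.8 and 10.2 CPM, and the adhesion receptor gene Selp at 29.2 and 15.6 CPM. Their ratios, in this order, were 0.322, 0.354 and 0.534 over all cells. They were 0.538, 0.666 and 0.609 in the Pf4 group and 0.134, 0.262 and 0.740 in Procr-positive cells. Fosb, an immediate early transcription factor gene that also responds to cell handling, was at 30 and 62.7 CPM. Other immediate early genes of the list did not all go the same way. Jun was at 314 and 426 CPM, Egr1 at 22.5 and 14.6 CPM and Nr4a1 at 1.61 and 1.24 CPM. The part of cell handling was not tested. In Procr-positive cells 22 were tested, with 10 lower (7.24% of all genes there) and 3 higher (3.96%) and a median of -0.46, against -0.067 over all genes. Slamf1 encodes CD150, on which the cells were sorted. Its ratio was 1.63 over all cells, 2.06 in the Pf4 group and 0.851 (0.681 to 1.06) in Procr-positive cells.

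A list of 25 relatives and partners of the 9 genes had 24 in the files and 12 at 5 CPM or more. Of these 3 were lower (Socs2 and Igf1r among them) and 0 higher in the KO-labelled library over all cells (backgrounds of 3.85% and 2.96%). Their median log2 ratio was 0.012, against -0.083 over all genes. Jak2, the kinase of the growth hormone receptor, was at 32.2 and 28.0 CPM, and Socs2, which STAT5 induces and which restrains the receptor, was at 54.9 and 15.0 CPM in Procr-positive cells, a ratio of 0.274 (0.222 to 0.334). Plscr1, the better known scramblase, was at 49.5 and 57.4 CPM over all cells. Of the genes listed for Neo1, Dcc had 0 UMIs in both libraries. The guidance molecule genes Rgma and Rgmb had 0 and 50 UMIs in the WT and 1 and 9 in the KO-labelled library. The netrin genes Ntn1 and Ntn4 had 4 and 112 UMIs in the WT and 1 and 236 in the KO-labelled library. All were under 5 CPM over all cells. The 20 stem cell genes, the reference for the Procr-positive group, had 18 tested over all cells. Of these 4 were lower (Mecom, Ctnnal1, Cdkn1c and Ifitm1, background 3.85%) and 1 higher (Txnip, background 2.96%). Their median was -0.063, against -0.083 over all genes.

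The genes whose level rose and fell most like that of a member were sought over 14 points (7 groups of cells that share no cell, in 2 libraries). They were taken from 5676 genes at 20 CPM or more, by Pearson's r of log2(CPM + 1), which does not compare the height of the levels. For Aldh1a1 they were Sf3b3 (0.956), Bex4 (0.952) and Zzz3 (0.949), for Nupr1 Tnip3 (0.964), Uba7 (0.955) and Nisch (0.949), and for Gda Ubxn8 (0.827), Srp9 (0.793) and Ufc1 (0.776). Bex4 was itself at 40.1 and 10.1 CPM, and Tnip3 at 24.7 and 5.15 CPM, in the WT and KO-labelled library. The others lay closer between libraries. Sf3b3 was at 143 and 122 CPM, Zzz3 at 48.7 and 40.2, Uba7 at 58.6 and 43.6 and Nisch at 89.3 and 71.5. Of those like Gda, Ubxn8 was at 22.3 and 27.2 CPM, Srp9 at 236 and 249 and Ufc1 at 132 and 135. Each value is among the 3 highest of 5676 genes over 14 points, so it is high by selection. The points share 2 libraries, and the correlations are a description only.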

How the data were processed

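The deposited files hold raw UMI counts per gene and cell barcode, which the authors produced using Cell Ranger 2.1.1 and mm10, per the submitters' processing notes; per the file headers the matrix was written by software version 3.1.0, and the labels name the 3′ v2 kit. Barcodes with at least 500 genes and at most 10% mitochondrial UMIs were kept (497 of 9969 WT and 629 of 11398 KO-labelled barcodes were left out). No doublet caller was run, and no clusters were made.

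UMIs were summed over the cells of a group and divided by the group's total (CPM). Intervals, all at 95%, are exact Poisson for CPM, Clopper-Pearson for shares, and from the exact binomial split of the UMIs for ratios. UMIs of 1 library are not independent animals, so intervals cover counting error only, and with 1 library per genotype nothing was tested. A ratio was counted as higher or lower at 1.5-fold or more, for genes at 5 CPM or more on either side. A count of 0 was set to 3 UMIs and its ratio read as a bound, and no ratio was formed where both sides held 3 UMIs or fewer. For shares of cells each cell was first thinned to 3000 UMIs (155 WT and 91 KO-labelled cells were shallower and left out). The steps were checked on simulated data.

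The members and gene lists were chosen with earlier results of these data known. All 9 members are named, and from each other list named here (other ageing-linked genes, relatives and partners, stem cell genes) up to 4 genes of the largest ratios at 20 CPM or more. Others named (Socs2, Dcc, Rgma, Rgmb, Ntn1, Ntn4, Jun, Nr4a1, Aldh1a7 and those in counts) were picked after their values were seen. The values of 1 gene of the relatives and partners are not reported here. The alternatives were another scaling, cell filters, male cells, thinning, other Procr and Pf4 minimums, another level minimum and another fold. Levels by sex, the second motif, the ratio without the top Clu cell and the levels given for Flt3-positive cells were chosen after seeing the data. Python 3.11.15, numpy 2.4.6, scipy 1.17.1, pandas 2.3.3, matplotlib 3.10.9 and R 4.3.3 with edgeR 4.0.16 (TMM factors only) were used.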

Additional observations from a re-analysis of the deposited data

Results flagged for a closer look

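Some ratios pointed in opposite directions in different groups of cells, with main intervals on either side of 1. None of these differences was tested, since each genotype had 1 library. For Gda the ratio of the KO-labelled over the WT library was 0.815 (0.664 to 0.996) in Procr-positive cells, 1.77 (1.65 to 1.90) in Procr-negative cells and 2.42 (2.18 to 2.68) in the Pf4 group. The Procr-positive ratio was 1.02 from 2 Procr UMIs, 0.336 in male cells (4 KO-labelled UMIs) and 1.43 (0.885 to 2.27) in Procr-positive cells that were also in the Pf4 group. For Clu it was 0.337 (0.177 to 0.603, 57 and 15 UMIs) in Procr-positive cells and 1.92 (1.74 to 2.13) in the Pf4 group, and 0.827 (0.332 to 1.81) in the cells that the groups share. For Aldh1a1 the Procr-positive over the Procr-negative level was 1.17 (1.08 to 1.26) in the WT and 0.836 (0.715 to 0.973) in the KO-labelled library, the latter from 0.708 to 1.31 over the alternatives.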

How the results depend on the processing

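No paired analysis was possible because each genotype had 1 library, and for the same reason no library could be left out. The counts under alternatives that follow have no share over all genes beside them. In male cells, of which the KO-labelled library had 973, 2 members were higher over all cells (1 in the main count), 2 were higher and 2 lower among Procr-positive cells (0 and 4), and 1 was lower in the Pf4 group (2). Over all cells 0 were higher with cells thinned to 3000 UMIs, with groups drawn from thinned cells and at a fold of 2. The stricter cell filter, which kept 4985 WT and 8701 KO-labelled cells, gave 1 higher among Procr-positive cells. In the Pf4 group 1 was lower with groups drawn from thinned cells, from 10 Pf4 UMIs and at a level minimum of 20 CPM, and 1 was higher at a fold of 2. In the WT library 1 member was lower in Procr-positive than in Procr-negative cells (0) without the deepest 5% of cells, with thinned cells and with groups drawn from them. In the KO-labelled library 2 were higher (4) and 0 lower (1) at a minimum of 20 CPM, where fewer genes are counted. The other 113 values of these counts stayed within 1.5 times. Of single-gene values 576 stayed within their interval, 177 moved outside it and 3 that were past 1.5-fold turned, all of Ghr from 2 to 25 UMIs a side: log2 ratios of 0.11 (stricter filter) and 0.85 (male cells) in the granulocyte group and 0.37 (male cells) among Procr-positive cells. Ratios nearer 1 also crossed it under some alternatives, among them Plscr2 (3.14, male cells) and Gda (1.02, from 2 Procr UMIs) in Procr-positive cells, Alcam in the granulocyte group (1.62) and the KO-labelled Procr-positive over Procr-negative ratio of Aldh1a1 (1.31), both with groups drawn from thinned cells. The causes were not tested. TMM scaling moved log2 ratios between libraries by 0.098 over all cells. Ghr and Neo1 rest on 213 and 4 UMIs in the KO-labelled library.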

Other observations

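Clu UMIs were concentrated in few cells of the KO-labelled library. The 100 cells with most Clu held 59.5% of its UMIs there and 37.8% in the WT library, and the highest cell held 65 and 9 UMIs. The same share was 14.9% in the KO-labelled and 8.41% in the WT library for Aldh1a1, and 26.6% and 16.0% for Nupr1. Neo1 and Clu were found together in 17 WT cells where 3.88 were expected within 10 depth classes, 4.39 times as often.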
